A study of Homo sapiens with 9 samples.

Results

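RNA of MDA-MB-231 cells that survived RSL3 (RSL3-R) was compared directly with RNA of cells of the same line that survived erastin (erastin-R). The rule takes the 3 RSL3-R and the 3 erastin-R libraries, 6 of the 9 libraries of the series. The other 3, from cells given the solvent DMSO (vehicle), stayed out of the contrast. They entered the fit for the shared estimate of the spread, and their levels are given as background. They were also the reference for picking 6 of the genes named, from among those called in opposite directions from them. MDA-MB-231 is a long-established human line from a breast cancer that lacks hormone receptors and HER2, and its cells have a mesenchymal form. Both survivor groups were treated with increased amounts of one compound, erastin or RSL3, and the surviving cells were collected. The labels name the compound but give neither doses nor times, so a difference between the groups cannot be told apart from a difference in schedule. The labels also do not say whether the libraries of a group came from separate cultures, and p values then measure only the spread between these libraries. No group is described as derived from 1 clone.

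Ferroptosis is a form of cell death in which iron drives the peroxidation of membrane lipids. Erastin blocks system xc-, the SLC7A11 and SLC3A2 antiporter that imports cystine for glutathione synthesis. RSL3 blocks GPX4, the selenoprotein that uses glutathione to reduce lipid peroxides. The 2 compounds thus act at successive steps of one defence, and the comparison asks in which genes survivors of the upstream block differ from survivors of the downstream block.

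Of the lists examined, 26 of 35 interferon-stimulated genes, 23 of 26 sterol genes and 31 of 41 genes of the ATF4 list were higher in RSL3-R cells, as were 19 of 35 NF-kB and cytokine genes and 28 of 49 matrix, adhesion and EMT genes. At the same threshold, an adjusted p under 0.05, 22.3% of all genes tested were higher and 26.9% lower. The TNF superfamily ligand TNFSF15 had 123 times the erastin-R level, and the cystatin CST1 had 148 times. Erastin-R cells had higher levels of 27 of 34 targets of the antioxidant factor NRF2, including both ferritin chains and TXNRD1, of IL11, PER1 and CEBPD, and of 37 of 39 mitotic genes. The transcripts of the drug targets themselves differed little, with SLC7A11 0.23 lower in RSL3-R cells on the log2 scale and GPX4 not past the threshold.

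Of 16188 genes tested by edgeR's quasi-likelihood test, 1674 were called, that is, they had an adjusted p under 0.05 and differed at least 2-fold, which is 10.3% of the genes tested. They comprised 1111 genes higher in RSL3-R cells (6.86%) and 563 lower (3.48%). Quantile normalization moved this split to 822 higher and 644 lower. With no minimum fold, 3615 genes were higher (22.3%) and 4354 lower (26.9%), and the median log2 difference of all genes was -0.02. Of 690 lincRNA genes tested, 145 were called higher and 30 lower, and of 926 antisense genes 131 and 42, against 683 and 400 of 12970 protein-coding genes. Where counting ignores strand, reads of an antisense gene and its partner cannot be told apart. Levels are given as CPM, the count of a gene relative to the TMM-normalized size of its library. Total counts were 15405102 to 17005927 in erastin-R and 15513592 to 17273464 in RSL3-R libraries.

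1 erastin-R library stood apart, and results that rest on it are given with and without it. On the first principal component of the 6 libraries, which held 68.1% of the variance, erastin-R replicate 1 scored -27.6 where replicates 2 and 3 scored -45.6 and -45.2 and the RSL3-R libraries 38.4 to 40.0. On the second component it scored 36.0, against -15.2 and -13.2 for the other erastin-R libraries. Without it 2030 genes were called, 1282 higher and 748 lower, and 1531 of them were among the 1674. With no minimum fold 4445 genes were higher and 4931 lower without it, against 3615 and 4354 with it. List counts without the library stand beside this rise over all genes. Of all counts, genes of mitochondrial DNA took 7.95% in that library, 5.55% and 5.84% in the other erastin-R libraries, and 9.52% to 10.2% in RSL3-R libraries.

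**Figure D1:**
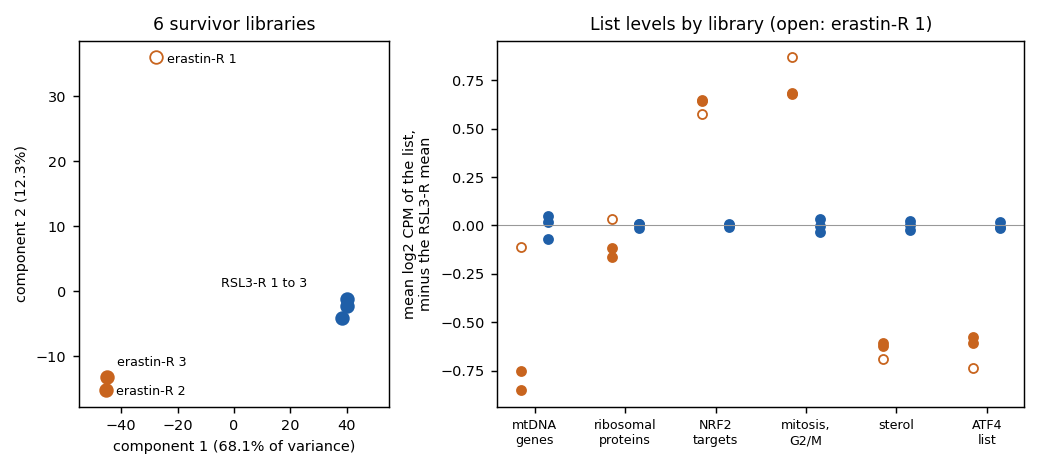
Left, scores of the 6 survivor libraries on the first (x axis, 68.1% of variance) and second (y axis, 12.3%) principal component of log2 CPM. Right, mean log2 CPM (y axis, minus the mean of the RSL3-R libraries) of 6 gene lists (x axis) in each erastin-R (orange) and RSL3-R (blue) library. The open circle is erastin-R replicate 1, which lies nearer to RSL3-R than its group mates for genes of mitochondrial DNA and apart from them on the second component.

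Both groups had the mesenchymal marker pattern known for the labelled line, which does not by itself identify the line. The 7 markers of MDA-MB-231 cells (VIM, CD44, EGFR, AXL, CAV1, ZEB1 and MSN) summed to 5157 to 5553 CPM of the total count in erastin-R and 5463 to 5480 in RSL3-R libraries. The 7 luminal markers summed to 15.3 to 20.4 and 16.6 to 21.0 CPM. Among them CDH1 was higher (log2 2.18) and GATA3 lower (-0.56) in RSL3-R libraries, and FOXA1, ERBB3 and EPCAM did not pass the test. The 5 leukocyte markers summed to 1.49 to 2.59 CPM in erastin-R and 4.25 to 5.50 CPM in RSL3-R libraries, with CD3E at 2 counts or fewer in each survivor library. PTPRC and CD14 were higher in RSL3-R libraries (3 to 11 against 19 to 24 counts, and 20 to 30 against 42 to 58). Vehicle libraries had 4 to 11 counts of PTPRC and 56 to 66 of CD14, and a leukocyte sum of 3.793 to 4.905 CPM. The 4 endothelial and blood markers summed to 1.30 to 2.16 and 11.5 to 13.9 CPM. Nearly all of that was PECAM1, with 20 to 36 counts in erastin-R and 199 to 222 in RSL3-R libraries, beside at most 3 counts of CDH5 and none of HBA1 or HBB. PECAM1 had 154 to 177 counts in vehicle libraries. The part of other cell types in the cytokine and interferon results was not tested.

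**Figure D2:**
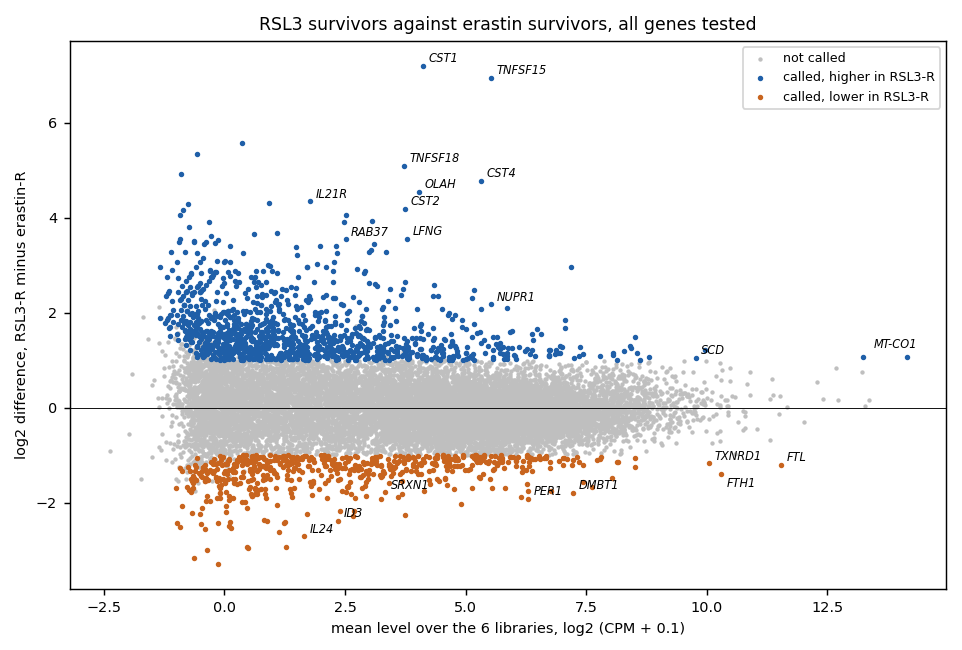
Each point is 1 of the 16188 genes tested, with its mean level over the 6 libraries as log2 (CPM + 0.1) on the x axis and its log2 difference, RSL3-R minus erastin-R, on the y axis. Blue points are the 1111 genes called higher and orange points the 563 called lower in RSL3-R. The largest differences, up to 7.21 for CST1, were higher in RSL3-R, and the abundant ferritin genes FTL and FTH1 lay below 0.

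Promoters of genes from 5 lists were searched for the short elements that the respective factors are known to bind, and stretches are shown here because they carry the elements beside which the expression results stand. The sequences are RefSeq promoters on GRCh38.p14, 250 bases before each gene's RefSeq start, and both strands were searched. The NF-kB element was searched as GGANTTTCC, the antioxidant response element of NRF2 as TGACNNNGC, the core of the ATF4 composite element as TGATGNAA and the sterol response element as TCACNCCAC. Capitals mark the match, which on the opposite strand reads as the reverse complement. Up to 120 bases around it are printed, within the 250 and outside annotated exons.
CXCL1, chr4:73869265-73869384, plus strand: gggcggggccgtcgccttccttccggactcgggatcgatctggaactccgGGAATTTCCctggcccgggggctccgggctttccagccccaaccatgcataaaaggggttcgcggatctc
NFKBIA, chr14:35404922-35404999, minus strand: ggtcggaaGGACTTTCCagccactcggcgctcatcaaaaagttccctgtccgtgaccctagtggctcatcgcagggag
IL6, chr7:22727027-22727146, plus strand: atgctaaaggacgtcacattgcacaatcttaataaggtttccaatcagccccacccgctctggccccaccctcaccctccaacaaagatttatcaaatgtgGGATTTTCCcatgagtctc
TXNRD1, chr12:104215630-104215749, plus strand: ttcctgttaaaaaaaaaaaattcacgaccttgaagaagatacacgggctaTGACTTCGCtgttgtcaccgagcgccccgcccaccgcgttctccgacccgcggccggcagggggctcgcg
AARS, chr16:70289624-70289743, minus strand: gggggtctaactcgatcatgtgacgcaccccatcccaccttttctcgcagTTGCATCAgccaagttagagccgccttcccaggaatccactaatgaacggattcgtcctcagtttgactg

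The NF-kB element stood in 11 of 28 matched promoters of NF-kB and cytokine genes (39.3%) and in 401 of all 27305 promoters (1.47%). CXCL1, NFKBIA and IL6, printed above, were higher in RSL3-R cells by 2.36, 0.49 and 0.9998 on the log2 scale. The promoters of ICAM1, CXCL2 and CXCL8, also higher (1.68, 1.07 and 1.12), held it too. The same element stood in the promoters of CXCL3 and TNFAIP3, which had log2 differences of 0.30 and -0.16 and did not pass the test (adjusted p = 0.165 and 0.257). The antioxidant response element stood in 5 of 26 promoters of NRF2 targets (19.2%) against 11% of all. TXNRD1 and GCLM, which hold it, were lower in RSL3-R cells, at -1.17 and -1.75 on the log2 scale, whereas ME1 and CBR1, which hold it too, had -0.05 and -0.14 (adjusted p = 0.565 and 0.231). The ATF4 core stood in 4 of 33 promoters of the ATF4 list (12.1%) and 2 of 13 of the tRNA synthetases (15.4%), against 3.19% of all. CHAC1, MTHFD1L, AARS and IARS, which hold it, were higher in RSL3-R cells (1.60, 0.28, 0.64 and 0.78). ATF3 and ASNS, which hold it too, had 0.01 and -0.01 (adjusted p = 0.965 and 0.955). The sterol element stood in 1 of 19 promoters of sterol genes and in 0.875% of all. Annotated exons on the same strand held the matches of CHAC1, ASNS, MTHFD1L, IARS, ICAM1, CXCL2, CXCL3 and TNFAIP3, and 1 base of that of GCLM. For CHAC1 and ICAM1 all 250 bases were exonic. A match here describes letters and not binding.

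The 12 protein-coding genes with the largest differences were taken among called genes with groups apart and at least 5 CPM in RSL3-R libraries. They had at most 3.45 CPM in any erastin-R library, and CST1 the least. CST1 (ENSG00000170373, chromosome 20, 23747553 to 23751268 on GRCh38), a secreted inhibitor of cysteine proteases, had 0.179, 0.127 and 0.365 CPM in erastin-R libraries 1 to 3 and 36.6, 35.3 and 31.0 CPM in RSL3-R libraries. The erastin-R values rest on 2 to 6 counts per library. Its log2 difference was 7.21 (standard error 0.24, adjusted p = 1.50e-10), and vehicle cells had 14.9 ± 2.44 CPM (SD, n = 3), between the survivor groups. Its neighbours CST4 and CST2 on the same chromosome were also higher. CST4 had 3.45, 2.48 and 2.37 CPM in erastin-R against 74.8, 79.1 and 75.8 CPM in RSL3-R libraries, and CST2 had 1.55, 1.40 and 1.16 against 24.8, 28.0 and 22.7 CPM. The 3 cystatins are members of 1 family with shared sequence. Of the 50-base stretches of CST1 transcripts 23.6% occur in another gene, mainly CST4, and the share was 30.2% for CST4 and 8.3% for CST2, so that reads could be lost or split between them.

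TNFSF15 (ENSG00000181634, chromosome 9, 114784635 to 114806126), a TNF superfamily ligand of the death receptor DR3, had 0.774, 0.827 and 0.608 CPM in erastin-R libraries and 87.7, 89.0 and 97.5 CPM in RSL3-R libraries. The log2 difference was 6.94 (standard error 0.13, adjusted p = 5.07e-13), and vehicle cells were at 1.42 ± 0.223 CPM (SD, n = 3), near the erastin-R level. TNFSF18, the ligand of GITR, had 0.547 to 0.954 CPM in erastin-R and 24.95 to 25.9 CPM in RSL3-R libraries. OLAH, a thioesterase that releases fatty acids from fatty acid synthase, had 1.16 to 1.53 CPM in erastin-R and 29.02 to 33.7 CPM in RSL3-R libraries. The receptor gene IL21R had 3 to 7 counts in erastin-R and 86 to 118 in RSL3-R libraries, and 23.3% of its exon sequence overlaps an antisense gene. The other large differences belonged to AGR2, a disulfide isomerase of the endoplasmic reticulum (log2 4.06), the organic anion transporter SLCO4C1 (3.94), the galactosyltransferase B3GALT5 (3.91), the Notch-modifying enzyme LFNG (3.55) and the small GTPase RAB37 (3.54). None of these 12 genes overlapped between the groups, as the choice required. In vehicle cells AGR2 had 8.94 to 11.3 CPM, LFNG 27.5 ± 3.06 CPM (SD, n = 3) and RAB37 9.68 to 13.1 CPM, so that for these the RSL3-R level lay near that of vehicle.

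**Figure D3:**
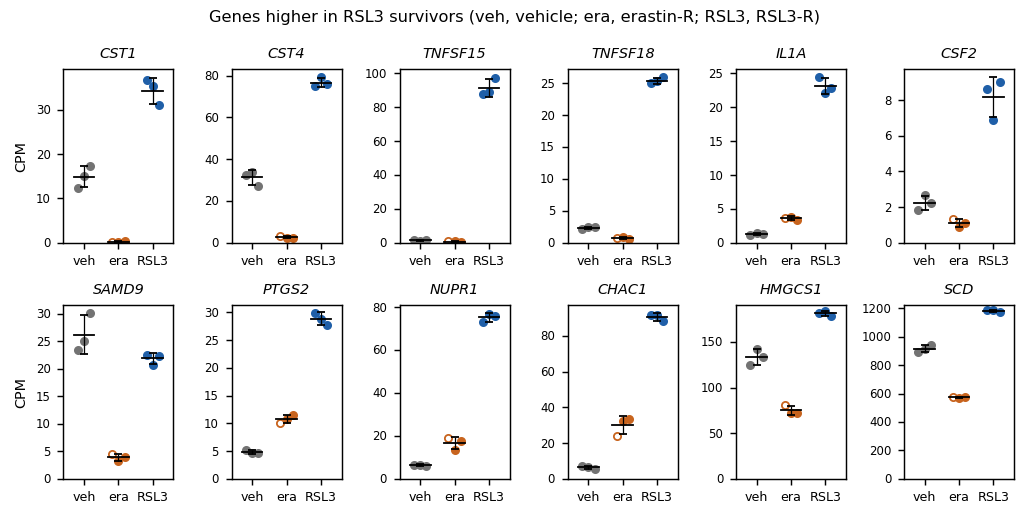
CPM (y axis, starting at 0) of 12 genes higher in RSL3-R cells, in vehicle (grey), erastin-R (orange, open circle replicate 1) and RSL3-R (blue) libraries, with the mean and SD of 3 libraries as bars. The 12 genes were picked from those named, and 4149 of all 16188 genes tested had every RSL3-R library above every erastin-R library. In each panel the 3 RSL3-R libraries lie above all erastin-R libraries. TNFSF15 was at 87.7 to 97.5 CPM in RSL3-R and under 2 CPM elsewhere.

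NF-kB is a family of transcription factors that induces cytokines, chemokines and its own inhibitors. Of 35 tested NF-kB and cytokine genes, 19 were higher in RSL3-R cells and 4 lower (54.3% and 11.4%), and 12 were called higher and 2 lower. The median log2 difference of the list was 0.44. The colony-stimulating factor CSF2 had 1.31, 0.891 and 1.09 CPM in erastin-R and 8.18 ± 1.12 CPM (SD, n = 3) in RSL3-R libraries (log2 2.88). IL1A, which starts interleukin 1 signalling, had 3.40 to 3.88 against 22.1 to 24.4 CPM (log2 2.66, adjusted p = 3.10e-09). The chemokines CXCL1, CXCL2 and CXCL8 (log2 2.36, 1.07 and 1.12), the adhesion molecule ICAM1 (1.68), IL1B (1.21) and CSF1 (1.48) were higher as well. TNFRSF9, a receptor of the TNF family, had 0, 2 and 0 counts in erastin-R and 52, 35 and 25 in RSL3-R libraries, a ratio of 55.8 with a 95% counting interval of 15.1 to 466. The list was not uniform. IL11, a cytokine of the IL-6 family, was lower in RSL3-R cells (97.6, 133 and 131 CPM against 34.5, 39.1 and 33.4 CPM, log2 -1.76), as was IL24 (4.41, 6.17 and 5.29 against 1.03, 0.435 and 0.935 CPM, log2 -2.71). The subunits RELA and NFKB2 were slightly lower (-0.28 and -0.23). NFKB2 was not past the threshold under quantile normalization, nor without erastin-R replicate 3 or RSL3-R replicate 1 or 3 (adjusted p = 0.0574 to 0.105 without a library), nor with the 6 libraries alone (0.0564) or a mean of at least 5 FPKM (0.0799). TNF itself had at most 1 count in any survivor library.

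Interferon-stimulated genes, which encode antiviral effectors, were higher for 26 of 35 and lower for 3, with a median of 0.59 and 10 called higher. SAMD9 had 4.41, 3.18 and 4.01 CPM in erastin-R and 22.6, 20.6 and 22.4 CPM in RSL3-R libraries (log2 2.49). IFI44L (1.93), SAMD9L (1.86), XAF1 (2.08) and OAS2 (1.57) followed. Vehicle cells had 23.4 to 30.2 CPM of SAMD9 and 12.9 to 17.2 CPM of SAMD9L, above both survivor groups. For IFI44L and XAF1 they had 4.56 to 5.68 and 2.90 to 3.34 CPM, between the groups (10.01 to 12.6 and 3.62 to 5.80 CPM in RSL3-R). The mean log2 CPM of the list was 3.929 to 3.931 in vehicle and 3.964 to 3.973 in RSL3-R libraries. The transcription factors IRF9 and IRF7 did not share the direction. IRF9 was called lower in RSL3-R cells (4.53, 3.75 and 5.17 against 1.87, 2.24 and 2.10 CPM), and IRF7 was lower by a small amount (-0.39). IRF7 lost the threshold without erastin-R replicate 2 or 3 or RSL3-R replicate 1 or 3 (adjusted p = 0.0996 to 0.117), and with the 6 libraries alone (0.0696) or a mean of at least 5 FPKM (0.0819). IRF9 shares 43.6% of its 50-base stretches with other annotated genes, and 38.3% of the exon sequence of XAF1 has a gene on the opposite strand.

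ATF4 is the factor of the integrated stress response, which raises amino acid uptake and synthesis when translation initiation is restrained. Of 41 tested members 31 were higher in RSL3-R cells, 12 of them called, and 5 lower, with a median of 0.64. NUPR1, a stress-induced chromatin protein, had 18.9, 13.6 and 17.4 CPM in erastin-R and 72.9, 76.8 and 75.9 CPM in RSL3-R libraries (log2 2.17, adjusted p = 3.55e-09). CHAC1, which degrades glutathione, had 24.1, 32.1 and 33.4 against 91.9, 91.9 and 88.2 CPM (log2 1.60), and vehicle cells had 5.30 to 7.03 CPM. INHBE (2.02), the amino acid transporter SLC1A4 (1.68) and the serine synthesis enzymes PSAT1 and PSPH (1.19 and 1.29) were higher too. The members lower in RSL3-R cells were ALDH18A1 (-0.91), CEBPB (-0.89), DDIT4 (-0.77), PYCR1 (-0.23) and SLC7A11 (-0.23). ASNS and ATF3, textbook targets, had -0.01 and 0.01 (adjusted p = 0.955 and 0.965). Of the 20 cytosolic tRNA synthetases, which charge transfer RNAs with amino acids, 14 were higher and 3 lower, with a median of 0.49. WARS had 178, 158 and 163 against 361, 362 and 387 CPM (log2 1.15), while VARS, RARS and QARS were lower (-0.69, -0.41 and -0.33).

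SREBP2 is the factor that controls sterol synthesis and uptake, and 23 of 26 members of that list were higher in RSL3-R cells with none lower. Their median was 0.54. HMGCS1, an early enzyme of the mevalonate pathway, had 80.9, 72.1 and 71.7 CPM in erastin-R and 182, 184 and 179 CPM in RSL3-R libraries (log2 1.28). FDPS, which makes farnesyl diphosphate, had a log2 difference of 1.21. The vehicle level of HMGCS1 was 125 to 142 CPM, between the groups. That of FDPS was 151 to 161 CPM, near the RSL3-R level of 163 to 165 CPM (log2 0.08 from vehicle, adjusted p = 0.504). The mean log2 CPM of the sterol list was 6.482 to 6.517 in vehicle, 5.853 to 5.936 in erastin-R and 6.523 to 6.567 in RSL3-R libraries. Among fatty acid genes 13 of 26 were higher and 4 lower (median 0.26). The mean log2 CPM of this list was 6.199 to 6.234 in vehicle, 5.862 to 5.926 in erastin-R and 6.099 to 6.188 in RSL3-R libraries. The desaturase SCD, which makes monounsaturated fatty acids, had 574, 572 and 575 CPM in erastin-R and 1187, 1190 and 1178 CPM in RSL3-R libraries (log2 1.05, adjusted p = 3.17e-09). Vehicle cells had 890 to 941 CPM of SCD, between the groups. FADS2, a desaturase of polyunsaturated fatty acids, was 0.86 higher in RSL3-R than in erastin-R cells. Its vehicle level, 437 to 463 CPM, lay above both survivor groups (174 to 217 CPM in erastin-R and 352 to 369 CPM in RSL3-R). ACSL4, which activates such fatty acids for membrane lipids, had 0.17 (adjusted p = 0.0661, and 0.00446 without erastin-R replicate 1). The acyltransferase LPCAT1 was lower (-0.95).

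**Figure D4:**
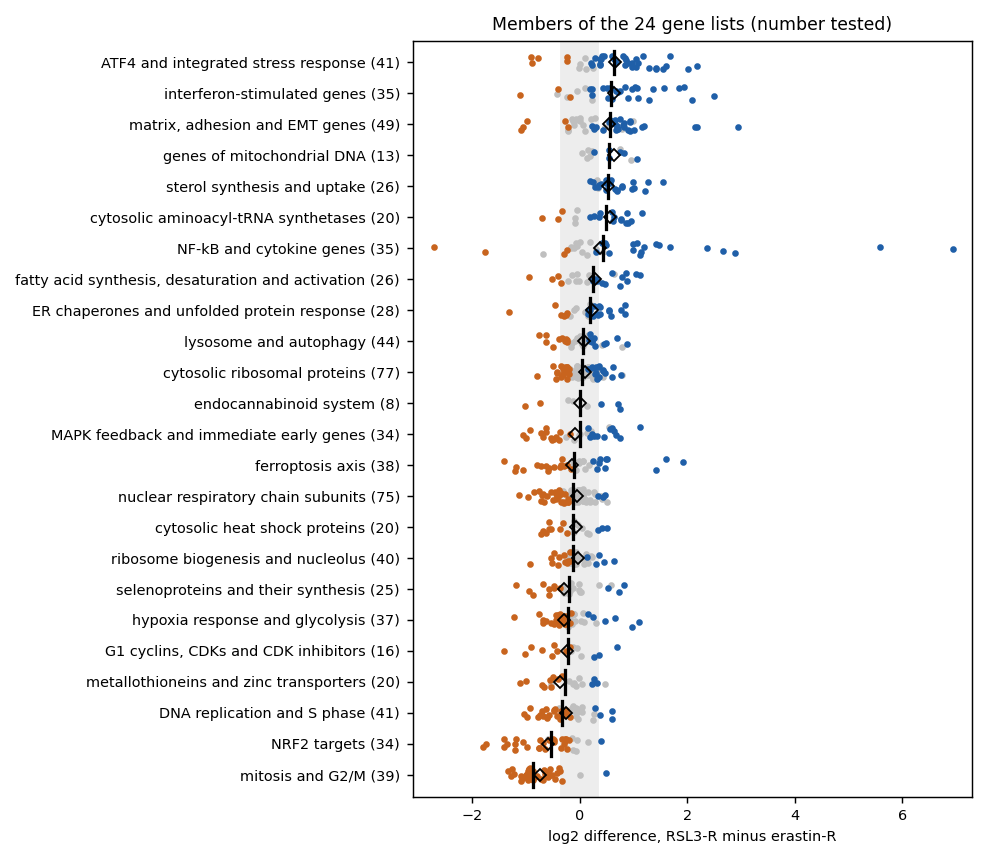
Log2 difference, RSL3-R minus erastin-R (x axis), of each tested member of 24 gene lists (rows, with the number tested). Blue and orange points passed an adjusted p of 0.05 higher or lower, grey points did not. The black bar is the median, the open diamond the median without erastin-R replicate 1, and the shaded band the middle of all genes from the lower to the upper quartile. Medians ran from -0.86 for mitosis to 0.64 for the ATF4 list.

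NRF2 induces enzymes of glutathione synthesis, thioredoxin recycling and iron storage. Of 34 tested targets 27 were lower in RSL3-R cells and 1 higher (79.4% and 2.94%), 9 were called lower, and the median was -0.53. GCLM, the modifier subunit of the enzyme that starts glutathione synthesis, had 157, 179 and 170 CPM in erastin-R and 54.0, 48.1 and 48.5 CPM in RSL3-R libraries (log2 -1.75, adjusted p = 1.95e-09). Vehicle cells had 61.2 to 69.5 CPM of GCLM, so that the RSL3-R libraries lay below them. For the list as a whole RSL3-R libraries lay above vehicle. Its mean log2 CPM was 5.632 to 5.66 in vehicle, 6.451 to 6.527 in erastin-R and 5.868 to 5.883 in RSL3-R libraries. TXNRD1, the cytosolic thioredoxin reductase, had 1524, 1466 and 1422 against 665, 661 and 632 CPM (log2 -1.17). The ferritin chains, which store iron, were lower in RSL3-R cells too. FTH1 had 1513, 1967 and 2001 against 649, 801 and 633 CPM (log2 -1.40), with 370 to 455 CPM in vehicle cells, and FTL had 4200, 4090 and 4269 against 1754, 1897 and 1816 CPM (-1.20). For both chains every RSL3-R library lay above every vehicle library. SRXN1, which repairs peroxiredoxins, had the largest difference of the list (9.77, 20.3 and 16.5 against 5.22, 4.91 and 3.39 CPM), but 85.0% of its exon sequence overlaps a gene on the same strand. For FTH1, 62.4% of the exon sequence has BEST1 exons on the opposite strand, and pseudogenes share 19.9% of its 50-base stretches. HMOX1, which breaks down heme and releases its iron, was lower (24.3 to 26.6 against 10.8 to 13.3 CPM). The transporter ABCC3 was the exception, 0.40 higher.

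Of the 38 tested genes of the ferroptosis axis 10 were higher and 16 lower in RSL3-R cells (26.3% and 42.1%). Their median was -0.10, and 22.3% and 26.9% of all genes tested were higher and lower. SLC7A11 had 213, 213 and 195 CPM in erastin-R and 178, 178 and 172 CPM in RSL3-R libraries (log2 -0.23, adjusted p = 0.00371), both far above the 30.5 ± 0.649 CPM (SD, n = 3) of vehicle cells. SLC3A2 had a difference of 0.10 that did not pass the test (adjusted p = 0.429) and was -0.04 without erastin-R replicate 1. GPX4 had 265, 276 and 285 against 242, 250 and 265 CPM, and the highest RSL3-R library lay level with the lowest erastin-R library (log2 -0.13, adjusted p = 0.0779). Without erastin-R replicate 1 the GPX4 difference was -0.15 and passed (adjusted p = 0.00564). PTGS2, often used as a transcript marker of ferroptosis, was higher in RSL3-R cells (10.1, 10.8 and 11.6 against 30.0, 28.9 and 27.6 CPM), as was the lipoxygenase ALOX5 (5 to 21 against 42 to 56 counts). Of 25 selenoproteins and their synthesis factors 3 were higher and 9 lower, and 14 were lower without erastin-R replicate 1. The 3 higher were the synthesis factors SECISBP2, EEFSEC and SEPHS2 (0.83, 0.74 and 0.52). CNR1, the cannabinoid receptor that the study examined, had at most 5 counts in any survivor library and was below the filter.

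**Figure D5:**
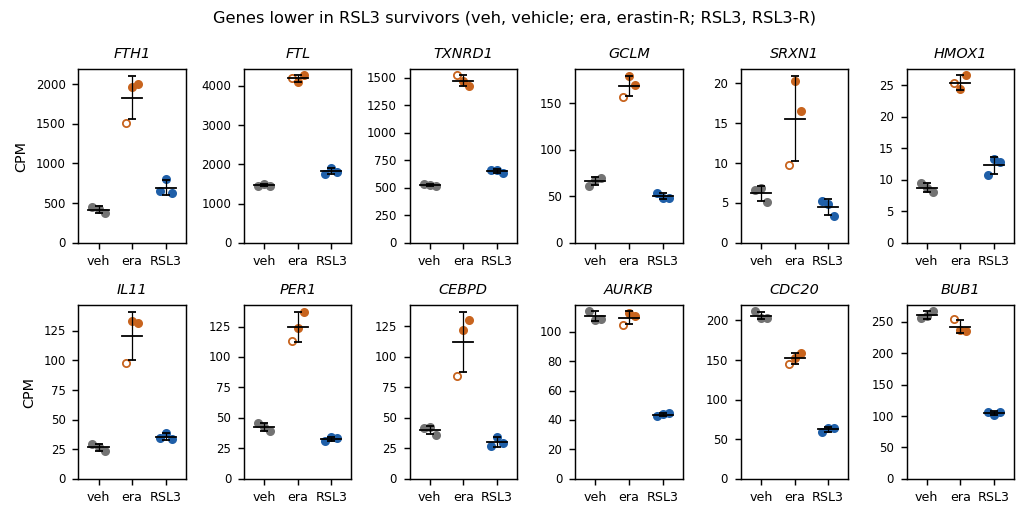
CPM (y axis, starting at 0) of 12 genes lower in RSL3-R cells, in vehicle (grey), erastin-R (orange, open circle replicate 1) and RSL3-R (blue) libraries, with the mean and SD of 3 libraries as bars. The 12 genes were picked from those named, and 4783 of all 16188 genes tested had every RSL3-R library below every erastin-R library. In each panel the 3 RSL3-R libraries lie below all erastin-R libraries. For the mitotic genes AURKB, CDC20 and BUB1 they also lie below vehicle.

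Mitotic genes build the spindle and time chromosome separation. Of 39 tested members 37 were lower in RSL3-R cells and 1 was higher, with 8 called lower and a median of -0.86 (-0.73 without erastin-R replicate 1). The kinase AURKB had 105, 113 and 111 CPM in erastin-R and 42.4, 43.9 and 44.8 CPM in RSL3-R libraries (log2 -1.32, adjusted p = 3.10e-09). CDC20 (-1.28), ANLN (-1.25) and BUB1 (-1.21) were similar, and HMMR was the member higher (0.48). Vehicle cells had 108 to 114 CPM of AURKB and 256 to 268 CPM of BUB1, near the erastin-R levels. They had 203 to 212 CPM of CDC20 and 630 to 711 CPM of ANLN, above both survivor groups (145 to 159 and 473 to 563 CPM in erastin-R). The mean log2 CPM of the list was 7.094 to 7.149 in vehicle, 6.555 to 6.742 in erastin-R and 5.842 to 5.908 in RSL3-R libraries. S phase genes were lower for 23 of 41 and higher for 4 (median -0.33). The list's mean log2 CPM was 6.003 to 6.037 in vehicle, 5.085 to 5.15 in erastin-R and 4.835 to 4.879 in RSL3-R libraries. POLD1, the catalytic subunit of DNA polymerase delta, was lower (-1.03), while CDC6, which licenses origins, was higher (0.59). CDC6 had 96.4 to 102 CPM in vehicle, above both survivor groups (25.3 to 34.4 CPM in erastin-R and 44.5 to 46.6 CPM in RSL3-R). Of 16 cyclins, CDKs and inhibitors of G1, 3 were higher and 9 lower. CCND1 was higher (224 to 234 against 372 to 377 CPM), as was the CDK inhibitor CDKN1A (p21, log2 0.35, adjusted p = 0.00582), whereas the inhibitors CDKN1C, CDKN2D and CDKN2C were lower (-1.41, -1.02 and -0.90). Vehicle cells had 472 to 488 CPM of CCND1, above both survivor groups. MYC had 520, 575 and 584 against 283, 300 and 304 CPM (log2 -0.92). With bulk RNA, fewer cells in a phase and less RNA per cell cannot be told apart.

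The other genes with the largest differences in this direction included several transcription factors. PER1, a repressor of the circadian clock, had 113, 123 and 137 CPM in erastin-R and 31.2, 33.9 and 33.3 CPM in RSL3-R libraries (log2 -1.92, adjusted p = 2.41e-09). CEBPD had 84.5, 122 and 130 against 26.6, 34.4 and 29.5 CPM (-1.89). ID3, an inhibitor of helix-loop-helix factors, had 6.67, 8.97 and 9.54 against 2.39, 0.994 and 1.46 CPM (-2.38). HES7, SOX21 and TBX6 were lower at low levels, at most 10.3 CPM in any survivor library. The scavenger receptor family member DMBT1 had 239, 235 and 226 against 65.4, 75.1 and 61.0 CPM (-1.80), and the RSL3-R values lay near the vehicle level of 73.5 to 78.2 CPM. Of 34 feedback and immediate early genes of the MAPK pathway 12 were higher and 14 lower. The EGFR ligand HBEGF (1.12) was called higher and the phosphatase DUSP1 (-1.05) lower.

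Matrix, adhesion and EMT genes were higher for 28 of 49 and lower for 5 (median 0.57), and 10 were lower without erastin-R replicate 1. The collagenase MMP1 (2.15), the plasminogen activator PLAU (1.20) and the integrin ITGA2 (1.16) were higher. CDH1, the epithelial cadherin, had 6 to 20 counts in erastin-R and 53 to 59 in RSL3-R libraries (2.18), while the EMT factors SNAI1 and SNAI2 were lower (-1.08 and -1.04) and ZEB1 and VIM did not pass the test (adjusted p = 0.984 and 0.209, and 0.0315 and 0.524 without erastin-R replicate 1).

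Genes of mitochondrial DNA and of the cytosolic ribosome were those where erastin-R replicate 1 decided the counts. With all libraries 6 of 13 mitochondrial genes were higher in RSL3-R cells, and 13 of 13 without that library, with medians of 0.55 and 0.64. Quantile normalization placed 3 of the 13 lower. MT-CO1, a subunit of cytochrome c oxidase, had 14067, 10322 and 10697 CPM in erastin-R and 25043, 23411 and 25345 CPM in RSL3-R libraries (log2 1.07). It was the most abundant gene, so that quantile normalization gave it equal values by construction, and related nuclear copies share 49.5% of its 50-base stretches. MT-CO2 had 9737 CPM in erastin-R replicate 1 and 5506 and 6136 CPM in replicates 2 and 3, against 11506 to 12406 CPM. Of 77 cytosolic ribosomal protein genes 16 were higher and 17 lower (20.8% and 22.1%), near or below the 22.3% and 26.9% of all genes. Without the library 37 were higher and 21 lower. Over all 16188 genes tested, 4445 were then higher and 4931 lower. RPS27 had 382 CPM in erastin-R replicate 1, 168 and 179 CPM in its group mates, and 410 to 423 CPM in RSL3-R libraries. Of 75 nuclear respiratory chain genes 3 were higher and 28 lower, and 13 were higher without it. Of 40 ribosome biogenesis genes 5 were higher and 12 lower (12.5% and 30%), and 9 were higher without it. Those shares stood against 22.3% and 26.9% of all genes.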

How the data were processed

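Poly(A)-selected RNA of 9 libraries was sequenced, 3 each of vehicle, erastin-R and RSL3-R cells. The authors deposited raw counts of uniquely mapped exonic reads per gene, without normalization, made with HISAT2 2.0.5 and featureCounts 1.5.0-p3 according to the submitters' processing notes. Whether the counting used strand is not given in the sources used here. FPKM values were deposited as well and were used here only for 1 alternative filter on low genes. All 58735 gene identifiers and coordinates match GENCODE release 29 on GRCh38.

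The edgeR package 4.0.16 (under R 4.3.3) fitted the quasi-likelihood model to the deposited counts after filterByExpr and TMM scaling (all 9 libraries in 1 model without covariates, Benjamini-Hochberg adjustment over 16188 genes). The contrast was RSL3-R minus erastin-R. A gene was called at an adjusted p under 0.05 and an absolute log2 difference of at least 1, and members of lists were counted at that adjusted p with no minimum fold. No test was run on a list as a whole. CPM values are scaled by TMM, except those of marker genes, which use the total count. The dispersion corresponded to a coefficient of variation of 8.56% between replicates, and 3 counts to 0.174 to 0.195 CPM of the total. Intervals of counts cover counting error only.

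The genes named were first the 12 protein-coding genes with the largest difference each way. These were taken among called genes with groups apart and at least 5 CPM in the higher group. Added were up to 4 members each way of each list and 7 fixed genes (SLC7A11, SLC3A2, GPX4, ACSL4, SCD, FADS2, CNR1). The 6 genes with the largest difference called in opposite directions from vehicle were also named, under the same filters as the 12. Some genes that this rule takes are not reported here. Other list members and the promoters printed were named after their values were seen. The comparison, its lists and tests were chosen with earlier results of these data known.

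Libraries of the same replicate number did not deviate together (correlation 0.0031 to 0.0279 between the survivor groups), so the numbers were not treated as pairs. Promoters came from RefSeq, matched by symbol or synonym. The NF-kB element was first searched with 1 more G at its start and then shortened. Overlap of exons was taken from GENCODE, and shared 50-base stretches from its transcripts. Alternatives were DESeq2 1.42.0 and its size factors, quantile normalization with limma 3.58.1, other filters, the 6 libraries alone, a replicate block, removal of the trend with gene length, and each survivor library left out. Figures were drawn with matplotlib 3.10.9.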

Additional observations from a re-analysis of the deposited data

Results flagged for a closer look

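Genes called in opposite directions from vehicle were taken among called protein-coding genes with groups apart and at least 5 CPM in the higher group. The 6 with the largest difference were all higher in RSL3-R and lower in erastin-R cells. Each survivor group's own contrast with vehicle gave the 2 directions, and the contrast between the survivor groups tested their difference. CST1 differed by 7.21 on the log2 scale between the groups, with -6.00 for erastin-R against vehicle and 1.20 for RSL3-R against vehicle. TNFSF18 differed by 5.09 (-1.66 and 3.44 from vehicle), CST4 by 4.78 (-3.49 and 1.29), OLAH by 4.54 (-1.65 and 2.89), IL21R by 4.34 (-1.20 and 3.15) and CST2 by 4.19 (-3.13 and 1.06). All 3 RSL3-R libraries lay above all 3 erastin-R libraries for each gene, as the choice required libraries apart. The adjusted p from edgeR ran from 2.11e-11 for CST4 to 1.82e-07 for IL21R, and the choice also required it under 0.05. Under the same filters 15 of 12970 protein-coding genes tested were called in opposite directions, and SOX21 was the one lower in RSL3-R cells (log2 -2.23). TNFRSF9 was called in opposite directions too (-3.85 and 1.74 from vehicle, 5.58 between the groups). Its mean of 2.33 CPM in RSL3-R libraries lay below the filter.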

How the results depend on the processing

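The number of called genes (1674) stayed within 1.5 times under the other normalizations and tests, from 1466 with quantile normalization to 1682 with DESeq2's size factors. DESeq2 called 1609, the 6 libraries alone 1649, removal of the trend with gene length 1664, an unadjusted p 1761 and no filter on low counts 2027. A mean of at least 5 FPKM left 7454 genes and called 294, 168 higher and 126 lower, and 4295 of them passed the adjusted p, 1939 higher and 2356 lower. With no minimum fold 7969 genes passed, 3615 higher and 4354 lower. With the replicate number as a block 1652 genes were called, 1618 of them among the 1674, although the numbers did not pair the libraries. Leaving out 1 library gave 1454 to 2030 called genes, the most without erastin-R replicate 1, and 998 to 1282 higher and 456 to 748 lower. The log2 difference of SLC3A2 turned to -0.037 without that library and ran up to 0.184 with another left out. ACSL4 passed the threshold under several alternatives and GPX4 only without that library. Of 24 list medians, those of the MAPK and endocannabinoid lists, both near 0, changed sign in some alternatives and the other 22 did not. Where a call was lost, the cause was not tested. Genes with few counts, such as TNFRSF9, are limited by depth.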

Other observations

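Hypoxia and glycolysis genes were lower in RSL3-R cells for 20 of 37 and higher for 6 (median -0.21). Hexokinase HK2 had 154, 200 and 190 CPM in erastin-R and 76.4, 80.0 and 78.5 CPM in RSL3-R libraries, and HIF1A was lower too (1268 to 1522 against 770 to 850 CPM). VEGFA, a secreted target of that factor, was higher in RSL3-R cells (280 to 326 against 577 to 614 CPM). Of 20 metallothioneins and zinc transporters 9 were lower and 3 higher, with MT1X at -1.11 and the zinc exporter SLC30A1 at -0.99.

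Of 28 genes of endoplasmic reticulum chaperones and the unfolded protein response 16 were higher in RSL3-R cells and 6 lower. DNAJB9 was higher (29.5 to 32.4 against 50.3 to 59.1 CPM), and SDF2L1 was lower (12.2 to 22.98 against 7.42 to 8.02 CPM). Of 20 cytosolic heat shock genes 3 were higher and 9 lower, and 5 were higher without erastin-R replicate 1. Of 44 lysosome and autophagy genes 12 were higher and 10 lower (27.3% and 22.7%), near the 22.3% and 26.9% of all genes tested. The protease CTSL had a log2 difference of 0.88, and NPC1, which exports cholesterol from lysosomes had -0.75 on the log2 scale. Of 8 tested genes of the endocannabinoid system 3 were higher and 2 lower (37.5% and 25%, against 22.3% and 26.9% of all genes). The fatty acid amide hydrolase FAAH (log2 0.76), NAPEPLD, which makes anandamide (0.72), and DAGLA (0.40) were higher. The hydrolase NAAA (-1.02) and ABHD12 (-0.73) were lower, and the list median was 0.003.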
